A study of Mus musculus with 18 samples.

Results

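RNA sequencing of isolated quadriceps myofibers was examined for 6 of 43430 counted genes, namely the skeletal muscle myosin light chains Myl1, Mylpf, Myl2 and Myl3 and the myosin light chain kinases Mylk2 and Mylk4. These genes were chosen by name with their measured CPM and fold changes between the vehicle, weekly and daily groups known, so their differences between treatments are given as a description with no test. All 6 had a count row and all 6 passed the filter on low counts, although Myl2 and Myl3 did so at levels near 0 in most libraries. The 18 libraries came from male and female C57BL/6 mice given vehicle, weekly prednisone or daily prednisone, with 3 libraries in each of the 6 groups. Prednisone is a glucocorticoid, a steroid that acts through a nuclear receptor. The study gave weekly treated mice prednisone on a single day of each week and vehicle on the others. No group carried a genetic change. Myofibers were the part of the collagenase II digest that a strainer held back, a step that does not remove every other cell. In such bulk samples, fewer cells of a type and less RNA per cell cannot be told apart. The study names 3 animals per group, while the labels give the replicates only a number, so the p-values measure the spread between these samples.

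Each myosin heavy chain carries an essential light chain and a regulatory light chain on its neck. Fast fibers use the essential chain Myl1 and the regulatory chain Mylpf, while slow fibers use Myl3 and Myl2, which are also the ventricular chains of the heart. Phosphorylation of the regulatory chain by a calcium- and calmodulin-dependent kinase increases the force of submaximal contractions, and a phosphatase with a myosin-targeting subunit reverses it. Mylk2 encodes the skeletal muscle light chain kinase, and Mylk4 encodes a further member of the same kinase family.

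The genes lie on 6 chromosomes of the mm10 assembly. Myl1 (ENSMUSG00000061816) lies on the minus strand at chr1:66924295-66945404, and Mylpf (ENSMUSG00000030672) on the plus strand at chr7:127211608-127214298. Myl2 (ENSMUSG00000013936) lies on the plus strand at chr5:122100951-122113472, and Myl3 (ENSMUSG00000059741) on the plus strand at chr9:110763646-110769804. Mylk2 (ENSMUSG00000027470) lies on the plus strand at chr2:152911352-152923068, and Mylk4 (ENSMUSG00000044951) on the minus strand at chr13:32700827-32783954. Counts were summed over whole genes, so no exon or isoform can be singled out. Myl2 overlaps Ccdc63 on the other strand, which had 15 counts in all libraries together, and Mylk4 overlaps the gene model Gm27342, which had 0.

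RefSeq promoter windows of 250 bases upstream of the start site were found for 5 of the 6 genes, with none for Mylk2. The windows of Mylk4, Myl3 and Mylpf are shown because they end within a few bases of the counted gene and belong to the kinase that differed between sexes, a slow chain and a fast chain. They are from the GRCm38.p6 assembly, at chr13:32783965-32784214, chr9:110763428-110763645 and chr7:127211358-127211607, and that of Myl3 is limited to the 218 bases before the counted gene. Capitals mark a match to the MEF2 motif in Mylk4 and to the CArG motif in Myl3, both of them patterns of muscle gene promoters.
Mylk4: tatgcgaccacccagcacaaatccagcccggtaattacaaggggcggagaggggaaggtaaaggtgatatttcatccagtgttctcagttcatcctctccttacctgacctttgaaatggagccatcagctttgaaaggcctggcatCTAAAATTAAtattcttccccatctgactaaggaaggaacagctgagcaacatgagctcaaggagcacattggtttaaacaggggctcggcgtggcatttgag
Myl3: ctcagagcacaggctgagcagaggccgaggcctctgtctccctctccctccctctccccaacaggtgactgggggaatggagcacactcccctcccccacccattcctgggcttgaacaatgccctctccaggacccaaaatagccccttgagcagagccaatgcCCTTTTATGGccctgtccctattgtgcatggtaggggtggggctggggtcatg
Mylpf: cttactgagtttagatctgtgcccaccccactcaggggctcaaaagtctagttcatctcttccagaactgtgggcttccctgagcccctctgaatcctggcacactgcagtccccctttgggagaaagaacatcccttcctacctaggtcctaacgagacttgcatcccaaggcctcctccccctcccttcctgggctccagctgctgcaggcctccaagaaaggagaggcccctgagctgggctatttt
The MEF2 match began 103 bases before the window's end and the CArG match 53 bases before it. On both strands, MEF2 was held by 2.92% and CArG by 1.47% of 32851 RefSeq mouse windows of this length. The E-box CANNTG, the pattern of the muscle-specific bHLH factors, occurred 3 times in the Mylk4 window and 1 time each in those of Myl3 and Mylpf, and 66.2% of all windows held it. ACANNNTGT, the core of the pattern bound by the glucocorticoid receptor, was not in the windows of these genes and was in 5.84% of all windows. The motifs can overlap, and these matches describe letters in a window only.

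Total counts ranged from 10506661 to 14686654 per library. Levels are given in CPM, which scales the counts of a library to a common library size after correction with TMM factors. A gene was called at an adjusted p under 0.05 in edgeR's quasi-likelihood test over 13596 genes. The 6 myofiber markers, among them Ckm and Acta1, summed to 53472 to 91502 CPM in the 18 libraries. In males their sums were 68356 to 90069 CPM with vehicle, 62295 to 73998 CPM with weekly and 60271 to 63986 CPM with daily prednisone. Daily and vehicle males thus did not overlap, with 0 of 6 markers called and 2 of 6 at a fold change above 0. The female groups overlapped. Among markers of other cells, the adipocyte and blood lists had the most called genes, although other lists moved too. The 8 adipocyte markers summed to 315 to 579 CPM in male vehicle, 669 to 1155 CPM in male weekly and 647 to 1441 CPM in male daily libraries. In females, the sums were 659 to 743 CPM with vehicle, 875 to 5387 CPM with weekly and 1105 to 3174 CPM with daily prednisone. In the mean of both sexes, 7 of these 8 genes were called higher with daily prednisone (7.48% of all genes). In daily males 0 of 8 were called (6.46% of all genes), and in daily females 1, as higher (0.132%). With weekly prednisone 0 were called in either sex or in the mean (0% of all genes). In the mean of both sexes all 8 had a fold change above 0 with either regimen, at a median log2 of 2.86 with weekly and 2.59 with daily prednisone. Each library had counts of all 8 except for Lep, at 0 in 1 library. Of the 4 blood markers, 3 were called lower with daily prednisone in the mean of both sexes (7.47% of all genes) and 1 in females (0.250%). Their sums were 94.2 to 145 CPM in male vehicle, 87.8 to 103 CPM in male daily, 82.7 to 147 CPM in female vehicle and 58.2 to 74.0 CPM in female daily libraries. With daily prednisone, 1 of 6 smooth muscle and 1 of 6 macrophage markers were called higher in males and in the mean of both sexes. In daily males 1 of 4 Schwann cell markers was called higher (2.07% of all genes). Macrophage sums were 70.5 to 82.2 CPM in female weekly and 28.9 to 57.5 CPM in female vehicle libraries. Summed markers of fibroblasts lay between 973 and 3503 CPM, endothelial cells between 374 and 993, smooth muscle between 287 and 852, Schwann cells between 61.1 and 233, blood between 58.2 and 170, macrophages between 28.9 and 82.2, satellite cells between 17.2 and 66.0 and heart between 0.652 and 17.2 CPM. The part of other cells in the results that follow was not tested beyond a fit with the adipocyte score as a covariate.

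By median level, the fast chains stood far above the kinases and the kinases above the slow chains. Myl1 and Mylpf made up 1.22% to 2.26% of all counts in single libraries. Per kilobase of the deposited gene length, the median level over 18 libraries was 5449 CPM for Mylpf, 1498 CPM for Myl1, 377 CPM for Mylk2 and 85.8 CPM for Mylk4. The slow chains had medians of 0.546 CPM per kilobase for Myl2 and 0.391 for Myl3. The lowest Mylpf value, 3907 CPM per kilobase, was above the highest Myl1 value of 2428, and the lowest Myl1 value of 845 was above the highest Mylk2 value of 592. The lowest Mylk2 value of 277 was in turn above the highest Mylk4 value of 131 CPM per kilobase. The slow chains overlapped Mylk4, whose lowest value was 27.5 CPM per kilobase, since Myl3 reached 92.9 and Myl2 52.9 CPM per kilobase in 1 library.

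**Figure D1:**
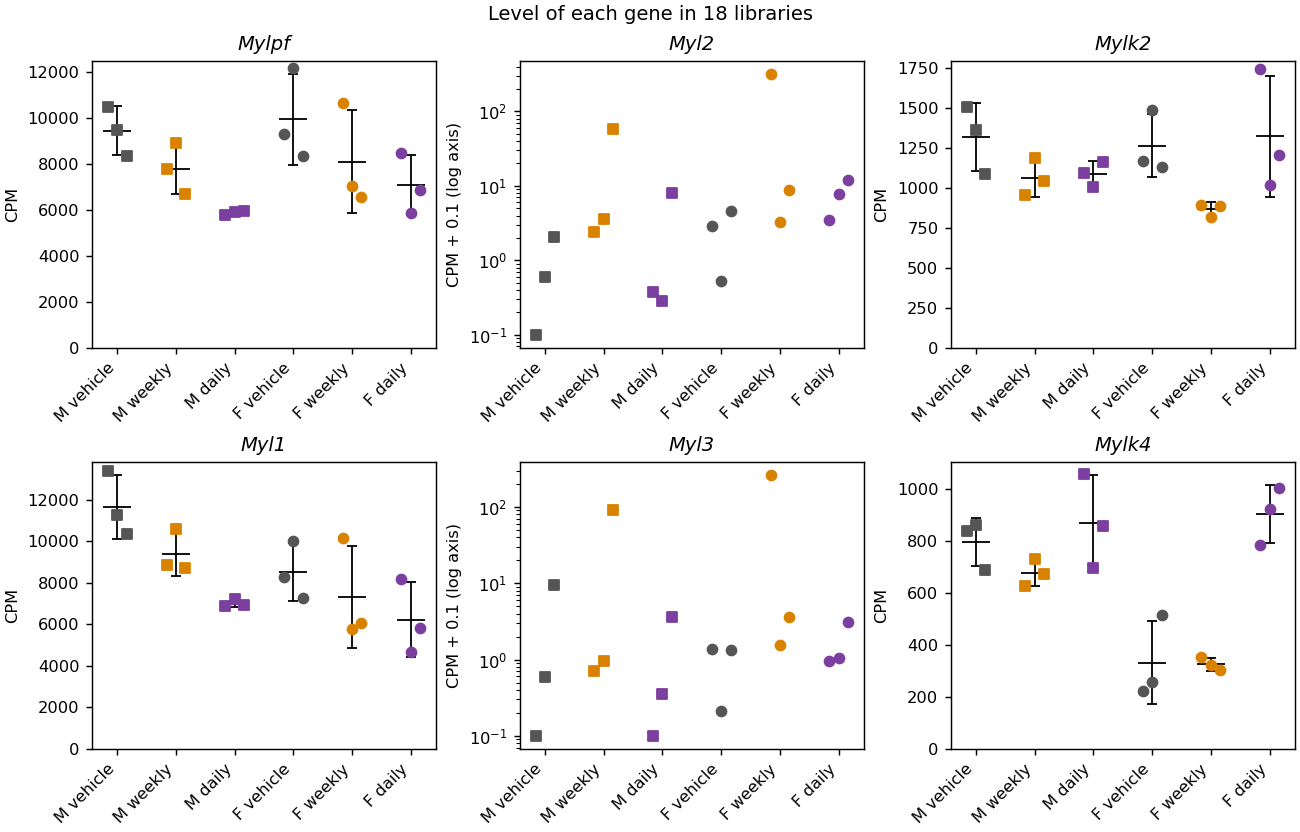
Level of each gene in every library in CPM, by group (M, male; F, female; squares and circles are single libraries); bars show the group mean and SD for Mylpf, Myl1, Mylk2 and Mylk4, and Myl2 and Myl3 are on a log axis after adding 0.1. Mylk4 lies between 222 and 515 CPM in the female vehicle libraries and between 786 and 1006 CPM in the female daily libraries, and 1 weekly library per sex stands out in Myl2 and Myl3.

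Myl1, the essential light chain of fast fibers, was lower with daily prednisone. In male vehicle libraries it was at 13350.1, 11261 and 10320.3 CPM. In male weekly libraries it was at 8858, 10600.0 and 8698 CPM, and in male daily libraries at 6878, 7208 and 6902 CPM. All 3 daily males were thus below all vehicle and all weekly males, while weekly and vehicle males overlapped. In females, the vehicle libraries were at 8277, 10026.7 and 7268 CPM, the weekly libraries at 10136.4, 5746 and 6045 CPM and the daily libraries at 8199, 4648 and 5806 CPM. The female groups overlapped, because replicate 1 of the weekly group was above all vehicle libraries and replicate 1 of the daily group lay within their range. The log2 fold change of daily against vehicle was -0.73 ± 0.24 (SE) in males and -0.46 ± 0.24 in females, and that of weekly against vehicle was -0.31 ± 0.24 and -0.22 ± 0.24.

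Mylpf, the regulatory light chain of fast fibers and a substrate of the skeletal muscle light chain kinase, followed the same order of groups in males. It was at 10497.8, 9461 and 8370 CPM with vehicle, at 7802, 8909 and 6680 CPM with weekly and at 5798, 5927 and 5964 CPM with daily prednisone. The 3 daily males lay close together and below every other male library. Female vehicle libraries were at 9299, 12161.7 and 8369 CPM, weekly libraries at 10664 and then 7056 and 6555 CPM, and daily libraries at 8469, 5887 and 6889 CPM. Daily and vehicle females overlapped in a single daily library. The log2 fold change of daily against vehicle was -0.68 ± 0.21 in males and -0.49 ± 0.21 in females, and that of weekly against vehicle was -0.28 ± 0.21 and -0.30 ± 0.21.

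In the mean of both sexes, the log2 fold change of daily against vehicle was -0.60 ± 0.17 for Myl1 and -0.58 ± 0.15 for Mylpf. With the adipocyte score as a covariate, it was -0.63 ± 0.27 for Myl1 and -0.59 ± 0.24 for Mylpf. The summed myofiber markers were also lower in all daily than in all vehicle males, and their part in these values was not tested.

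**Figure D2:**
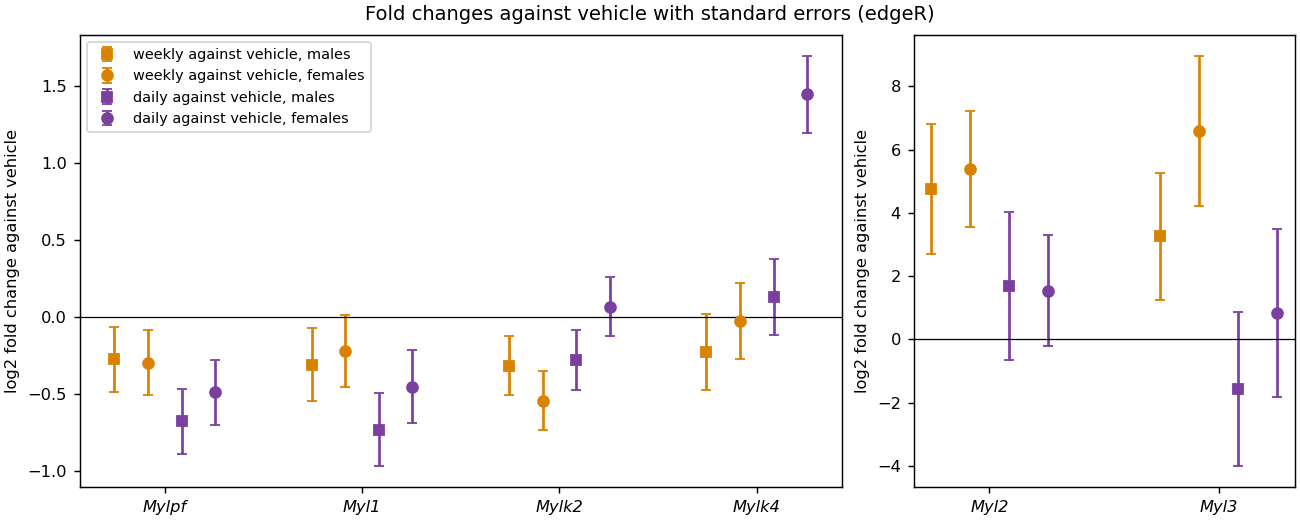
Log2 fold changes against vehicle with standard errors from edgeR, for weekly (orange) and daily (purple) prednisone in males (squares) and females (circles); the slow chains have their own axis. Mylk4 in daily females stands at 1.45 ± 0.25, Myl1 and Mylpf are below 0 in all 4 comparisons, and the standard errors of Myl2 and Myl3 run from 1.74 to 2.65 log2 units.

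Mylpf and Myl1 differed in their balance between sexes. The ratio of Mylpf to Myl1 counts within a library, which does not depend on scaling, ran from 0.768 to 0.881 in the 9 male libraries and from 1.03 to 1.27 in the 9 female libraries. The sexes did not overlap with vehicle, weekly or daily prednisone. On the log2 scale the male groups had means of -0.30 ± 0.05 (SD, n = 3) with vehicle, -0.27 ± 0.10 with weekly and -0.25 ± 0.04 with daily prednisone, and the female groups had means of 0.22 ± 0.06, 0.16 ± 0.12 and 0.21 ± 0.15. The comparison was chosen after the values had been seen and carries no test. Of 13595 other genes, 1.10% had a ratio to Myl1 above all males in all females, and 0.772% had a ratio to Mylpf below all males in all females. In the vehicle groups alone, females had less Myl1 than males in each library, at a log2 fold change of -0.45 ± 0.24 (edgeR adjusted p = 0.526), against 0.07 ± 0.21 (edgeR adjusted p = 0.927) for Mylpf.

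**Figure D3:**
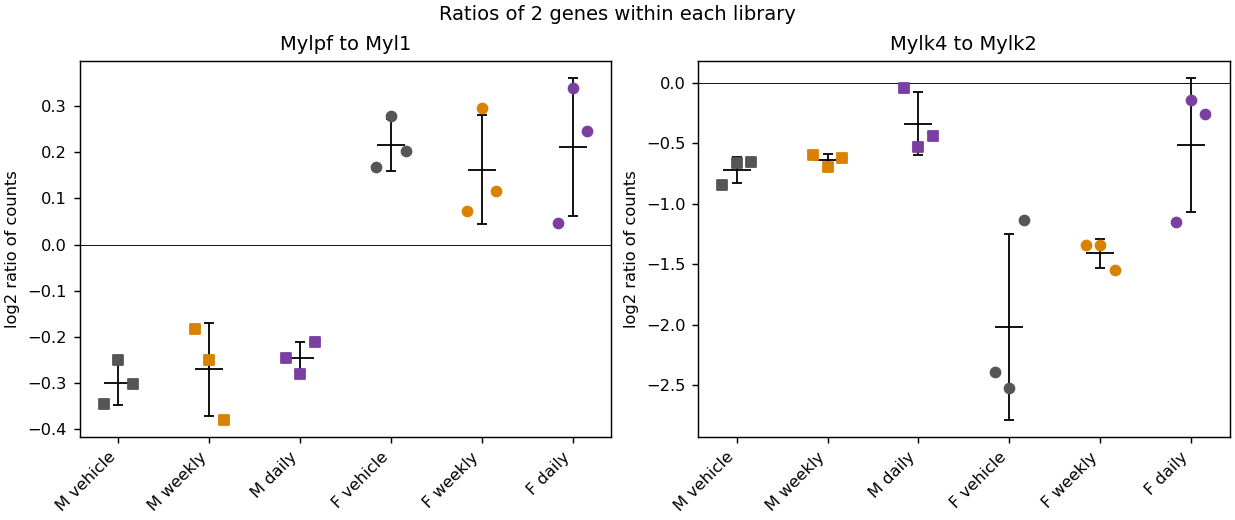
Log2 ratio of Mylpf to Myl1 counts and of Mylk4 to Mylk2 counts in each library, by group, with the group mean and SD. The ratio of Mylpf to Myl1 is below 0 in all 9 male and above 0 in all 9 female libraries, and the ratio of Mylk4 to Mylk2 is lowest in 2 female vehicle libraries.

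Myl2 and Myl3, the regulatory and essential light chains of slow fibers, were under 20 CPM in 16 of 18 libraries. Female weekly replicate 1 had 317 CPM of Myl2 (4729 counts) and 261 CPM of Myl3 (3892 counts). Male weekly replicate 3 had 57.9 CPM of Myl2 (831 counts) and 90.5 CPM of Myl3 (1298 counts). In the other 16 libraries, Myl2 ran from 0 to 11.96 CPM and Myl3 from 0 to 9.48 CPM, with Myl2 at 0 in 1 and Myl3 at 0 in 2 of them. Both genes are thus set by 1 library per sex, and in each case it was a weekly library.

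The group values of the slow chains follow these libraries. Male weekly libraries were at 2.29, 3.46 and 57.9 CPM of Myl2 against 0, 0.490 and 1.98 CPM with vehicle, and all 3 were above vehicle. Female weekly libraries were at 317, 3.16 and 8.71 CPM of Myl2 against 2.79, 0.435 and 4.48 CPM with vehicle, which overlapped. For Myl3, male weekly libraries were at 0.616, 0.865 and 90.5 CPM against 0, 0.490 and 9.48 CPM with vehicle.
Female weekly libraries had 261, 1.44 and 3.55 CPM of Myl3 against 1.27, 0.109 and 1.25 CPM with vehicle. The other weekly libraries of each sex reached at most 8.71 CPM of Myl2 and 3.55 CPM of Myl3. The fitted log2 fold change of weekly against vehicle in females was 5.38 ± 1.83 for Myl2 and 6.58 ± 2.38 for Myl3 with all libraries, and 1.19 and 1.46 without female weekly replicate 1. In males it was 4.76 ± 2.06 for Myl2 and 3.26 for Myl3 (SE 2.0002), and 1.86 and -2.11 without male weekly replicate 3. Daily libraries stayed low, at 0.278, 0.189 and 8.03 CPM of Myl2 in males and 3.38, 7.61 and 11.96 CPM in females, and at 0, 0.251 and 3.52 CPM of Myl3 in males and 0.845, 0.944 and 3.02 CPM in females.

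The other genes of slow fibers stood out in the same libraries. All 8 of Myh7, Tnnt1, Tnni1, Tnnc1, Tpm3, Atp2a2, Casq2 and Myoz2 had their highest value in female weekly replicate 1, at 2.91 to 338 times the median of the 16 other libraries, and 6 of the 8 had their second highest in male weekly replicate 3. Myh7, the slow myosin heavy chain, was at 668 CPM and 94.6 CPM in these libraries and at most at 21.0 CPM elsewhere. Myh2, the heavy chain of type IIa fibers, was at 1685 and 804 CPM against at most 729 CPM elsewhere. Myh4, the heavy chain of type IIb fibers, ranked 17th and 14th of 18 there. None of the 8 fast fiber genes was highest in the female library, at 0.845 to 1.21 times the median. The heart marker Myl7 was at 0 in all 18 libraries and Nppa at most at 0.435 CPM, while the other heart markers were low but not at 0. In the female and the male library, Myh6 was at 4.83 and 4.74 CPM (up to 12.5 CPM elsewhere), Tnnt2 at 3.62 and 3.28 CPM (up to 4.57 CPM elsewhere) and Tnni3 at 0 and 0.279 CPM. Myl4 was at 6.03 and 4.32 CPM there and at up to 6.69 CPM elsewhere. The female library also had 3372 CPM of summed adipocyte markers and the male library 796 CPM, against a median of 805 CPM in the others, and their part in the slow genes was not tested.

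**Figure D4:**
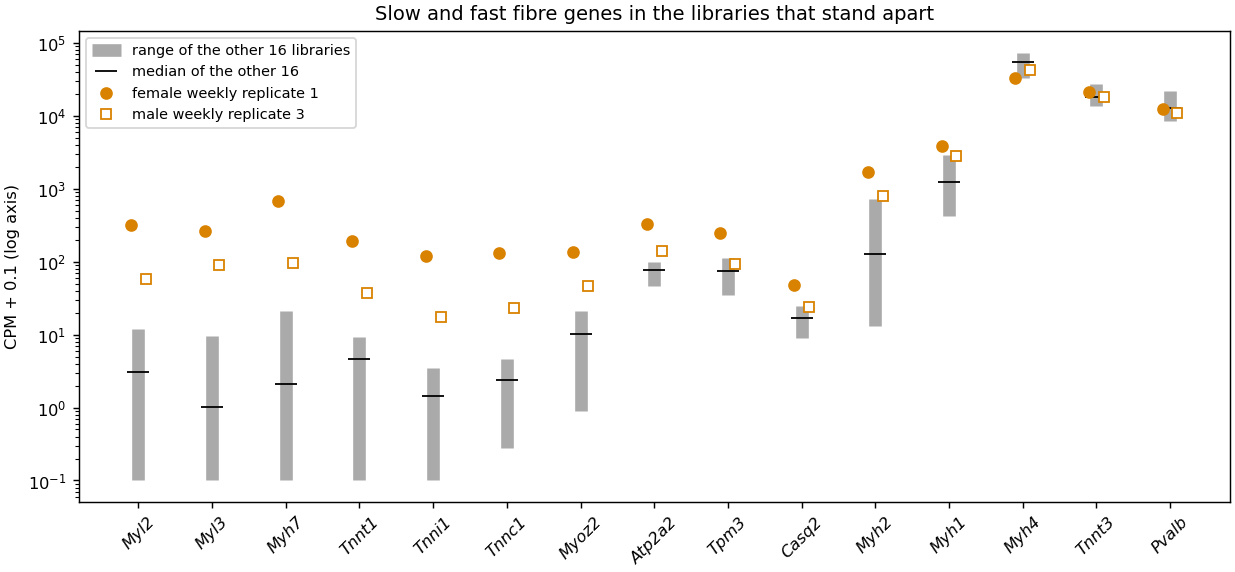
Level of slow and fast fiber genes in CPM plus 0.1 on a log axis in female weekly replicate 1 (filled circles) and male weekly replicate 3 (open squares), with the range (gray bars) and median (black lines) of the 16 other libraries. Myl2 and Myl3 stand above the range in both libraries, as do Myh7, Tnnt1, Tnni1, Tnnc1, Myoz2 and Atp2a2, and Tnnt3 and Pvalb stay within it.

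The slow and fast chains of the same class gave ratios that moved together. The log2 ratio of Myl2 to Mylpf and that of Myl3 to Myl1, with 0.5 added to each count, correlated over 18 libraries at r = 0.927 (Spearman's rho 0.860) as a description, and at r = 0.867 (rho 0.800) over 16 libraries without those that stand apart. The ratios share their libraries and their low counts.

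Mylk2, the skeletal muscle light chain kinase, was lower in weekly females than in any other group. Male libraries were at 1506, 1364 and 1088 CPM with vehicle, at 953, 1186 and 1040 CPM with weekly and at 1092, 1004 and 1164 CPM with daily prednisone, and these groups overlapped. Female libraries were at 1169, 1489 and 1131 CPM with vehicle, at 894, 816 and 887 CPM with weekly and at 1747, 1018 and 1203 CPM with daily prednisone. All 3 weekly females lay below all vehicle and all daily females, and daily and vehicle females overlapped. The log2 fold change of weekly against vehicle was -0.54 ± 0.19 in females and -0.32 ± 0.19 in males, and that of daily against weekly in females was 0.61 ± 0.19. Daily against vehicle gave -0.28 ± 0.19 in males and 0.07 ± 0.19 in females. Female against male vehicle differed by -0.06 ± 0.19 (edgeR adjusted p = 0.931).

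Mylk4 was lower in female than in male vehicle mice. The male vehicle libraries were at 837, 862 and 690 CPM and the female vehicle libraries at 222, 259 and 515 CPM, so every female library was below every male library. The ratio of the male to the female mean was 2.40, and the log2 fold change of female against male vehicle was -1.26 ± 0.25 (edgeR adjusted p = 0.0220). Mylk4 was the 1 of 6 genes called in this comparison, in which 0.765% of 13596 genes were called. The female vehicle libraries also enter the treatment differences known when the genes were chosen. The call and the adjusted p-values of this paragraph are therefore given as a description. Female vehicle replicate 3 lay nearest to the males, and without it the fold change was -1.73 (edgeR adjusted p = 0.000272). A fit of the compared groups alone ended the call at the same fold change (edgeR adjusted p = 0.136). Leaving out 1 of 4 other libraries also ended it, namely male vehicle replicate 1 (-1.22) or 2 (-1.19) and female vehicle replicate 1 (-1.03) or 2 (-1.10), with edgeR adjusted p from 0.0996 to 0.153. The adipocyte sums of 315 to 579 CPM in male and 659 to 743 CPM in female vehicle libraries did not overlap either, and with the adipocyte score as a covariate the fold change was -1.31 ± 0.26 (edgeR adjusted p = 0.0219).

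With daily prednisone, Mylk4 was higher in females and reached the male level. The female daily libraries were at 786, 924 and 1006 CPM, above all female vehicle libraries, while the male daily libraries were at 1059, 695 and 857 CPM and overlapped the male vehicle libraries. The mean of daily over vehicle libraries was 2.73 in females and 1.09 in males, at log2 fold changes of 1.45 ± 0.25 and 0.13 ± 0.25. Female and male daily libraries overlapped, with means of 906 ± 111 CPM (SD, n = 3) and 871 ± 182 CPM.
Weekly females had libraries at 352, 323 and 302 CPM, which lay within the range of female vehicle and below all weekly males at 629, 732 and 675 CPM. The log2 fold change of weekly against vehicle was -0.03 ± 0.25 in females and -0.23 ± 0.25 in males. Without female vehicle replicate 3, the highest of its group, the female value turned to 0.43, since the other vehicle libraries lay below all 3 weekly ones. The log2 fold change of daily against weekly was 1.47 ± 0.25 in females and 0.36 ± 0.25 in males. Adipocyte sums were 875 to 5387 CPM in these weekly females and 1105 to 3174 CPM in daily females. With the adipocyte score as a covariate, the daily log2 fold change in females was 1.26 ± 0.34.

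The difference between the sexes in the daily response of Mylk4 was 1.32 ± 0.35 on the log2 scale, and 1.78 without female vehicle replicate 3. It rests on the treatment differences known when the genes were chosen and is given as a description too. For the other 5 genes, the sex difference of the daily response was 0.28 ± 0.33 for Myl1, 0.19 ± 0.30 for Mylpf, 0.35 ± 0.27 for Mylk2, -0.14 ± 2.82 for Myl2 and 2.40 ± 3.60 for Myl3. For the weekly response the sex difference of Mylk4 was 0.20 ± 0.35. For either sex difference 0 of 6 genes were called by edgeR, as were 0% of 13596 genes, with 638 and 357 genes at an unadjusted p under 0.05 and 2 and 0 calls by DESeq2.

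The ratio of Mylk4 to Mylk2 sets the kinases against each other within a library. Its log2 mean was -2.02 ± 0.77 (SD, n = 3) in female vehicle, -1.41 ± 0.12 in female weekly and -0.52 ± 0.55 in female daily libraries. In males the means were -0.72 ± 0.11 with vehicle, -0.64 ± 0.05 with weekly and -0.34 ± 0.26 with daily prednisone. All 3 vehicle females and all 3 weekly females were below every male library, while daily females at -0.14 to -1.15 overlapped the males. In vehicle females the ratio varied most, from -2.52 to -1.13.

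Counts of calls and of groups that did not overlap are given beside those over all genes, and nothing is read from them. With daily prednisone 0 of 6 genes were called in males (6.46% of all genes, 2.07% higher and 4.38% lower). In females 1 was called, as higher (0.382% of all genes, 0.132% higher and 0.250% lower). In the mean of both sexes 1 was called as higher and 2 as lower (15% of all genes, 7.48% higher and 7.47% lower). Some of these counts depended on single libraries. The count in daily females was 0 without female vehicle replicates 1 or 2 or female daily replicates 2 or 3, and also with the adipocyte score as a covariate, in a fit of the compared groups alone and in a fit with a block for the replicate number. In the mean of both sexes, the count of lower genes did not hold Myl1 in the fits without male vehicle replicate 1, male daily replicates 1 or 3, female vehicle replicate 2, or female daily replicates 2 or 3 (-0.51 to -0.59), and none of the 6 was called with the adipocyte score. With weekly prednisone 0 of 6 were called in males, in females and in the mean, where 0% of all genes were called, with 777, 1083 and 1492 genes at an unadjusted p under 0.05 and 1, 152 and 183 calls by DESeq2. For daily against weekly 0 of 6 were called in either sex (0% of all genes), with 1829 genes in males and 2401 in females at an unadjusted p under 0.05 and 225 and 546 calls by DESeq2. Same-numbered female weekly and daily libraries deviated together, and when their number was entered as a block for these 6 libraries alone, 522 genes were called, Mylk4 among them. Libraries of a group that lay all 3 above or all 3 below those of the other group were counted too. In daily against vehicle males, Myl1 and Mylpf were below (17.1% of all genes) and none above (16.4%). In daily against vehicle females, Mylk4 was above (12.9%) and none below (10.2%). In weekly against vehicle males, Myl2 was above (7.76%) and none below (8.97%), and in females Myl3 was above (4.94%) and Mylk2 below (3.13%). In daily against weekly males, Myl1 and Mylpf were below (12.7%) and none above (11.9%), and in females Mylk2 and Mylk4 were above (9.83%) and none below (7.34%). Female vehicle libraries were below male for Myl1 and Mylk4 (9.22%) and above for none (9.66%). Female weekly libraries were below male for Mylk2 and Mylk4 (7.38%) and above for none (7.28%), and with daily prednisone none of the 6 was separated by sex (7.49% of all genes below and 8.92% above).

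The lists of related genes were also chosen with earlier results of these data known. Their calls and adjusted p-values, here and in the paragraphs that follow, are therefore given as a description. Of the light chains outside the 6 genes, 7 of 8 were tested and 0 were called in each of the 11 comparisons, while the atrial chain Myl7 was at 0 in each library. The most abundant per kilobase was Myl6, the essential chain of smooth muscle and nonmuscle myosin, at 104 to 210 CPM. Myl4, the embryonic and atrial essential chain, was at 2.22 to 6.69 CPM. The median log2 fold change of the 7 with daily prednisone in the mean of both sexes was -0.08, against 0.02 over all genes.

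Among other kinases of the light chain and the calmodulins, 6 of 7 were tested. In the mean of both sexes 2 were called higher with daily prednisone, as were 7.48% of all genes. Rock1, a kinase that acts on the regulatory chain and on its phosphatase, rose by 0.82 ± 0.25 on the log2 scale (edgeR adjusted p = 0.0345), from 11.5 to 24.1 CPM in males and from 12.7 to 19.1 CPM in females. Its close relative Rock2 rose by 0.34 ± 0.10 (edgeR adjusted p = 0.0331). Over the 12 fits without 1 library, the fold changes were 0.66 to 0.96 for Rock1 and 0.30 to 0.40 for Rock2. The call of Rock1 was kept in 4 of them, without male vehicle replicate 2, female vehicle replicates 1 or 3 or female daily replicate 1, and that of Rock2 in 5, without male vehicle replicate 2, male daily replicate 1, female vehicle replicates 1 or 3 or female daily replicate 2. The call of Rock1 was also lost without the filter on low counts (0.85) and in a fit of the compared groups alone (0.84). Mylk, the smooth muscle kinase, Dapk3 and the calmodulin genes Calm2 and Calm3 were not called in any comparison, and Mylk3, the cardiac kinase, was at most at 0.593 CPM and was not tested. The list's median was 0.11, against 0.02 over all genes.

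The light chain phosphatase list had 2 of its 7 genes called in the mean of both sexes with daily prednisone, where 15% of all genes were called. Ppp1cb, the catalytic subunit, rose by 0.40 ± 0.13 (edgeR adjusted p = 0.0404). Ppp1r14b, which encodes an inhibitor of the phosphatase, fell by 0.72 on the log2 scale (SE 0.11, edgeR adjusted p = 0.00118). Ppp1r14b had group means of 70.6 ± 14.3, 52.1 ± 7.58 and 37.7 ± 4.72 CPM in male vehicle, weekly and daily libraries (SD, n = 3), and of 33.3 ± 4.08, 33.3 ± 2.05 and 23.1 ± 2.54 CPM in females. It also fell in daily males (-0.90 ± 0.16, edgeR adjusted p = 0.00772) and was lower in female than in male vehicle (-1.08 ± 0.16, edgeR adjusted p = 0.00173). Its calls were kept in each fit without 1 library, while that of Ppp1cb was kept in 4 of 12, without replicate 2 of male vehicle or male daily or replicate 1 of female vehicle or female daily, over a range of 0.33 to 0.46. With the adipocyte score as a covariate, Ppp1cb had 0.11 ± 0.17 and Ppp1r14b -0.70 ± 0.18. Ppp1r12a, a myosin-targeting subunit, had 0.98 ± 0.30 in daily males (edgeR adjusted p = 0.0612) and 0.19 ± 0.30 in daily females (edgeR adjusted p = 0.781). Its median level was 21.9 CPM, below 225 CPM for Ppp1r12b and 56.7 CPM for Ppp1r12c. Ppp1r12b had group means of 238 CPM in male vehicle, 290 in male daily, 213 in female vehicle and 256 in female daily libraries and was not called. The list's median in the mean of both sexes was 0.02, as over all genes.

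**Figure D5:**
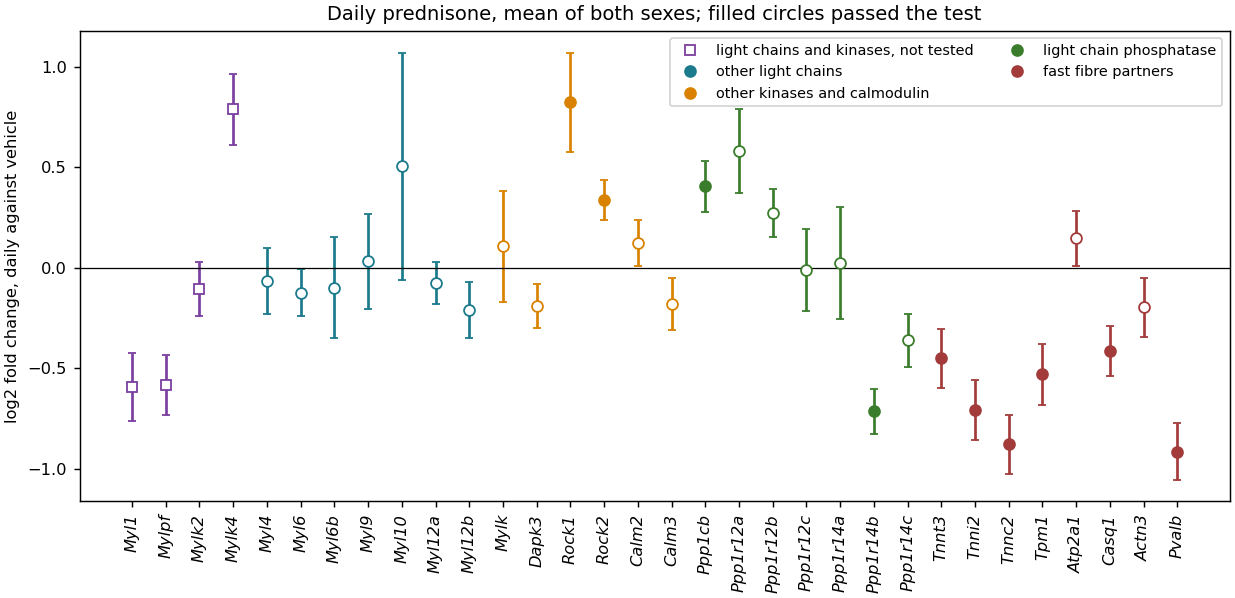
Log2 fold change with standard error of daily against vehicle in the mean of both sexes for Myl1, Mylpf, Mylk2 and Mylk4, for other light chains, other kinases and calmodulin, the light chain phosphatase and fast fiber partners; open squares are the genes described without a test, and filled circles had an adjusted p under 0.05. The lists were also chosen with earlier results known, so the filled circles are a description too. Rock1, Rock2 and Ppp1cb are filled above 0, and Ppp1r14b and 6 fast fiber genes are filled below it.

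With daily prednisone, the heavy chains that carry the light chains did not follow Myl1 and Mylpf. Of 8 heavy chain genes, 1 was called with daily prednisone in the mean of both sexes, where 15% of all genes were called. Myh8, the perinatal heavy chain, rose by 1.01 ± 0.26 (edgeR adjusted p = 0.0146), from 1.40 to 3.16 CPM in males and from 2.47 to 4.65 CPM in females. Myh4, by far the most abundant at 32345 to 73085 CPM, had 0.09 ± 0.16 (edgeR adjusted p = 0.769). The list's median was 0.95, with standard errors of 0.996 for Myh2 and 1.67 for Myh7. With weekly prednisone, Myh4 had lower group means than with vehicle, at 45995 against 58359 CPM in males and 34397 against 53979 CPM in females. Of the 8 heavy chains, 7 had a fold change above 0 in weekly males and 5 in weekly females, and 0 were called (0% of all genes).

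Thin filament and calcium genes of fast fibers moved in the direction of Myl1 and Mylpf. In daily males 4 of 8 were called lower, against 4.38% of all genes. They were the troponins Tnni2 (-0.82 ± 0.21, edgeR adjusted p = 0.0306) and Tnnc2 (-1.04 ± 0.21, edgeR adjusted p = 0.0114), calsequestrin Casq1 (-0.60 ± 0.18, edgeR adjusted p = 0.0493) and the calcium buffer Pvalb (-1.10 ± 0.20, edgeR adjusted p = 0.00858). In daily females 0 of 8 were called (0.382% of all genes), and Pvalb had -0.73 ± 0.20 (edgeR adjusted p = 0.0845). In the mean of both sexes 6 of 8 were called lower, against 7.47% of all genes, with Tnnt3 (-0.45 ± 0.15) and Tpm1 (-0.53 ± 0.15) in addition. Atp2a1, the calcium pump, had 0.15 ± 0.14 and the sarcomeric actinin gene Actn3 -0.20 ± 0.15. The median of the 8 was -0.49, against 0.02 over all genes. In males, the calls of Tnni2 (-0.71 to -0.87) and Casq1 (-0.47 to -0.70) were lost whichever of the 6 libraries was left out. That of Tnnc2 (-0.89 to -1.11) was lost without male vehicle replicate 1 or male daily replicates 2 or 3, and that of Pvalb (-0.98 to -1.17) without male vehicle replicate 1. In the mean of both sexes Tnni2, Tnnc2 and Pvalb were called in 12 of 12 such fits, Tpm1 (-0.43 to -0.64) in 6, Casq1 (-0.34 to -0.46) in 4 and Tnnt3 (-0.36 to -0.54) in 2. Without the filter on low counts, Casq1 (-0.38) and Tnnt3 (-0.42) were not called in the mean of both sexes, nor was Casq1 in males (-0.57), where a fit of the compared groups alone ended its call too (-0.61). With the adipocyte score as a covariate none of the related genes was called with daily prednisone, at larger standard errors. Pvalb then had -0.82 ± 0.23, Tnnc2 -0.76 ± 0.23, Tnni2 -0.65 ± 0.24, Rock1 0.75 ± 0.38, Rock2 0.42 ± 0.16 and Myh8 1.17 ± 0.39. In weekly against vehicle, all 8 fast fiber genes had a fold change below 0 in males and in females. Their median log2 fold changes were -0.47 in weekly males and -0.38 in weekly females, and 0 were called (0% of all genes). For daily against weekly, the medians were -0.20 in males and 0.04 in females. Of the 7 slow fiber genes 0 were called in any comparison.

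The genes whose log2 CPM was most like each of the 6 over 18 libraries are given as a description. For Myl1 they were Tpi1 (r = 0.975), Ubac1 (0.960) and Ak1 (0.951), and for Mylpf Eif3i (0.967), Hsbp1 (0.962) and Fxyd1 (0.959). Myl1 and Mylpf correlated with each other at 0.770, and at 0.949 after subtraction of group means. For Myl2 the nearest were Ldhb (0.944), Myoz2 (0.938) and Myh7 (0.933), and for Myl3 Myh7 (0.911), Tnnc1 (0.903) and Bdh1 (0.887), values that were 0.914, 0.886 and 0.844 for Myl2 and 0.725, 0.688 and 0.793 for Myl3 over the 16 libraries without those that stand apart.
For Mylk2 the nearest genes were Gaa (0.953), Mybpc2 (0.948) and Fxr2 (0.934). For Mylk4 they were Slc30a4 (0.885), Hook2 (0.881) and Rnf150 (0.875), which fell to 0.531, 0.731 and 0.407 after subtraction of group means. Mylk2 and Mylk4 correlated at 0.272. All points share the depth and cell content of their libraries.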

How the data were processed

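RNA from isolated quadriceps myofibers of 18 libraries was sequenced. The deposited values are raw read counts per gene, for which the authors aligned reads to mm10, and the submitters' processing notes name TopHat2 2.1.0, Bowtie2 2.2.6 and HTSeq, and list mm9 beside mm10. The strand setting is not given in the sources used here. Of 43430 identifiers 42462 had a symbol.

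The counts of 13596 genes that passed filterByExpr (minimum count 10) entered edgeR 4.0.16 under R 4.3.3. After TMM scaling, 1 mean per group was estimated across the 18 libraries by robust quasi-likelihood, and contrasts were called at a Benjamini-Hochberg adjusted p under 0.05. Totals of 10506661 to 14686654 counts per library set the counting precision, and genes under 20 CPM rest on few reads. Steps were tested on simulated data. DESeq2 1.42.0 and limma 3.58.1 served as alternatives.

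The 6 genes, the 6 lists of related genes and the 10 marker lists were chosen with earlier results of these data known. Named genes were the 6 and the called, most abundant or fiber-type genes of the lists, with some uncalled ones such as Ppp1r12a. For each of the 6, the 3 tested genes with the highest Pearson r of log2 CPM (prior count 2) were named too. Gene models without a name were passed over. Replicate numbers, taken from the titles, were checked for pairing by correlating deviations from group means. Only female weekly and female daily libraries of the same number deviated together (r = 0.501, 0.483 and 0.439), a pairing seen in the data that no label states. No 2 libraries of the same group were alike within sampling noise, and pairs from different groups were not compared in this way. Promoter windows came from RefSeq, GRCm38.p6. A gene of the list of other kinases and calmodulins is not reported here and was left out of that list.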

Additional observations from a re-analysis of the deposited data

How the results depend on the processing

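Of 1107 log2 fold changes of the 6 genes under other settings, 1034 stayed within 1 SD or on their side of the threshold. Changes of sign were counted only in the sex comparisons and for called genes, and there were 30. Uncalled genes changed sign in treatment comparisons too, which that count leaves out. Examples are Myl2 in daily males (-1.68 without male daily replicate 3), Myl3 in weekly males (-2.11 without male weekly replicate 3) and Mylk2 in daily females (-0.19 without female daily replicate 1). Calls among the 6 genes changed as follows. DESeq2 called 2 in daily against vehicle males, 2 in daily against weekly females and 1 in weekly against vehicle over both sexes. No filter and a stricter filter each called 1 in daily against weekly females. With only the groups compared, 2 were called in daily males, 0 in daily females and 0 in female against male vehicle. With the adipocyte score as a covariate, 0 were called in daily females and 0 in the mean of both sexes.

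With the replicate number as a block over all groups, 0 were called in daily females, and the sex difference of Myl2 in the daily response turned to 0.76. Chosen after seeing the data, the block in female daily and weekly libraries called 1 in daily against weekly (522 genes in all), and so did leaving out female weekly replicate 1 and male weekly replicate 3 together (334 genes). That block was fitted for daily against weekly females alone, so calls in other comparisons were not checked with it. Without female weekly replicate 1 and male weekly replicate 3, the sex difference of the weekly response was -0.29 for Myl1 and -0.69 for Myl2. With the adipocyte score it was -0.25 for Myl2. With limma-voom, Myl2 had 0.86 and -1.20 in the sex differences of the daily and weekly response, and Myl3 had 0.36 in female against male vehicle. The cause of these reversals was not tested.

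Leaving out 1 library gave 0 to 1 called genes of the 6 in daily females, in daily against weekly females, in female against male vehicle and in the sex difference of the daily response. In that difference, Myl2 ran from -1.85 to 3.23 and Myl3 from -1.35 to 5.31. In the sex difference of the weekly response, Myl1 ran from -0.22 to 0.22, Mylpf from -0.27 to 0.13, Myl2 from -3.57 to 3.50, Myl3 from -1.80 to 8.68 and Mylk4 from -0.033 to 0.66. In female against male vehicle, Mylpf ran from -0.082 to 0.18, Myl3 from -2.41 to 1.94 and Mylk2 from -0.18 to 0.047.

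The number of genes called over the whole table moved more. DESeq2 called 1383 in daily males, 530 in daily females and 235 in female against male vehicle. In daily males, 1530 were called with only the groups compared (0 in daily females, 10 in daily against weekly males) and 38 with the adipocyte score (0 in daily females, 11 in the mean of both sexes). No filter gave 29 in daily females and, in daily against weekly, 8 in males and 23 in females, where the stricter filter gave 26, limma-voom 2 and the replicate block 1. The block left 8 in daily females. Without the libraries that stand apart, 1 was called in weekly females. Leaving out 1 library gave 92 to 414 in daily males, 0 to 126 in daily females, 0 to 253 in weekly females, 0 to 174 in weekly over both sexes, 0 to 312 in daily against weekly females and 43 to 105 in female against male vehicle. With 3 libraries a group, Myl2 and Myl3 allow no firm fold change. They had at most 198 and 91 counts in 16 libraries, and 1 weekly library per sex stood far above the others.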
